A study of Mus musculus with 6 samples.

Results

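The genes described here encode the MHC class II antigen presentation molecules of the mouse, the chaperones that load them, and Ciita, the gene of their transcriptional coactivator. The 8 members were taken by symbol from a count table of 23413 genes: H2-Aa, H2-Ab1 and H2-Eb1, which encode chains of the peptide-binding heterodimers; H2-DMa, H2-DMb1 and H2-DMb2, which encode the peptide exchange factor H2-DM; Cd74, which encodes the invariant chain; and Ciita. RNA was measured by RNA-seq in alveolar macrophages, the phagocytes that reside in the lumen of the lung, obtained by lavage from wild-type mice. In the LPS group, cells were exposed in vitro for 4 h to 100 ng/mL lipopolysaccharide (LPS), a Gram-negative outer membrane component. In the LPS + VD3 group, cells received the same dose of LPS together with 50 nM vitamin D3 (VD3) for 4 h. The third group was control cells, whose culture conditions the labels do not state. No group analysed here received VD3 without LPS.

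Each group had 2 libraries, called control 1 and 2, LPS 1 and 2, and LPS + VD3 1 and 2. Total counts lay between 5022314 and 5465223 per library. Levels are given as CPM, a gene's count relative to the library's scaled total. The labels do not state whether replicate libraries stem from different mice or cultures, and the p-values weigh differences against a spread between libraries that may be technical only. LPS 1 carries a number from another series of sample numbers than the other 5 libraries. LPS 1 and LPS 2 also differed more than other replicates: the SD across genes of their log2 difference was 0.55, against 0.29 in control and 0.44 in LPS + VD3. Across genes, that difference ranked with transcript GC content with Spearman's rho of 0.655 (control 0.235, LPS + VD3 0.18). All 8 members had a higher CPM in LPS 1 than in LPS 2. Values without LPS 1 are given where it changed the call of a named gene in a comparison given here for that gene.

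The members lie on 3 chromosomes (GRCm38, GENCODE M21 annotation). The class II region on chromosome 17 holds H2-DMa (34119541-34139101, plus strand), H2-DMb2 (34143307-34151555, plus), H2-DMb1 (34153072-34160230, plus), H2-Ab1 (34257689-34269419, plus), H2-Aa (34282744-34287823, minus) and H2-Eb1 (34305867-34316674, plus). Cd74 lies on chromosome 18 (60803848-60812652, plus) and Ciita on chromosome 16 (10480059-10528418, plus). Exons of H2-DMa overlap exons of Brd2 on the opposite strand, and those of Ciita overlap Dexi on the opposite strand. Strand use in counting is not given, so reads from the overlaps of these opposite-strand pairs could not be told apart. Exons of Cd74 overlap Mir5107 on the same strand over 12 bases. The longest transcripts of H2-DMb1 and H2-DMb2 aligned over 1144 bases with 87.7% identity and an identical run of 221 bases, so the split of reads between these copies is uncertain. Those of H2-Ab1 and H2-Eb1 aligned over 797 bases with 74.0% identity and at most 37 identical bases in a row.

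MHC class II molecules are heterodimers of an alpha and a beta chain that show peptides from endosomes to CD4+ T cells. The invariant chain occupies the binding groove until endosomal proteases trim it, and H2-DM then exchanges the remaining fragment for a peptide. Ciita does not bind DNA itself: it is recruited by the RFX, CREB and NF-Y factors that sit on the X and Y boxes of class II promoters. Dendritic cells and B cells carry much class II constitutively, and resting alveolar macrophages are known for low levels of it.

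Promoter entries of RefSeq (GRCm38.p6, chromosome 17) were found for 5 of the 8 members: H2-Aa, H2-Eb1, H2-DMa, H2-DMb1 and H2-DMb2. Both strands of the 250 bases before the annotated start were searched for an X box core, AACNGATGATG, the cAMP response element TGACGTCA, which stands at the CREB position of the X box, and the Y box ATTGG. The X box core is the consensus of GATGATG and the 4 bases before it in the members' own entries, so that entries holding GATGATG match it by construction, and all letters were chosen after the windows had been read. The 4 windows below are shown because they hold letters of both an X and a Y element, in 2 chain genes and 2 DM genes. A match of letters is a description, not a measured binding site. Capitals mark the matched X box core or cAMP response element and the Y box that follows it.
H2-Aa (minus strand, chr17:34287847-34287922): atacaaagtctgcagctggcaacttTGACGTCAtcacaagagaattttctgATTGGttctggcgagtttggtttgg
H2-Eb1 (plus strand, chr17:34305753-34305832): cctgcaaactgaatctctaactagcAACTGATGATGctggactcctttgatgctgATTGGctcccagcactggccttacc
H2-DMb1 (plus strand, chr17:34153074-34153154): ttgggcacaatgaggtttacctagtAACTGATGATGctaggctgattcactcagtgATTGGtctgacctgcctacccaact
H2-DMb2 (plus strand, chr17:34145103-34145183): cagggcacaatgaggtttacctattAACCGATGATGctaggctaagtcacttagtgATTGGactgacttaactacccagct

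Between the X element and the Y box lay 18 bases in H2-Aa, 19 in H2-Eb1 and 20 in both DMb genes. The Y box began 48 bases before the annotated start in H2-Aa, 59 in H2-Eb1, 61 in H2-DMb1 and 90 in H2-DMb2. The X box core was found in 0.0487% of 32851 promoter entries, the cAMP response element in 1.55% and ATTGG in 33.8%. An X box core or cAMP response element with at most 30 bases to a following ATTGG on the gene's strand was found in 0.0944%. Neither H2-DMa entry held the X core or the cAMP response element in these letters.

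The macrophage label was checked against markers. All 14 listed alveolar macrophage genes were detected, with a summed 30300 to 34000 CPM in every library, most of it from Chi3l3 and Lpl. Single markers moved within that sum: in LPS against control 7 of the 14 were lower and 3 higher (edgeR), with a median log2 difference of -0.37, Krt79 at -1.79, Siglec5 at -1.26 and Marco at 1.29. The B cell list was detected at 5 of 9 genes and 80.5 to 93.9 CPM, nearly all of it Cd22, with Cd79b, Pax5, Blk and Ebf1 at 0. The dendritic cell list (12 of 13 genes detected, Cd207 at 0) summed to 23.6 and 31 CPM in control, 42.6 and 41.6 with LPS alone, and 35.5 and 41.9 with LPS + VD3. The monocyte and interstitial macrophage list (11 of 11 detected) summed to 22.1 and 21.1 CPM in control, 277 and 371 with LPS alone, and 187 and 215 with LPS + VD3. The lung epithelium list (9 of 11 detected, Sftpc and Lamp3 at 0) went from 223 and 241 CPM in control to between 35.9 and 53.9 in the other libraries. Nearly all of that sum was 1 gene, Cdh1, with 222 and 238 CPM in control and 30.3 to 49.7 in the treated libraries. The neutrophil list (5 of 9 detected, with S100a9, Mpo, Elane and Retnlg at 0) stayed between 18.1 and 37.2 CPM, and the T and NK cell list (6 of 8 detected, Cd3e and Ncr1 at 0) between 2.22 and 5.57. With LPS alone, 2 of 3 tested dendritic genes were higher than in control and 1 lower (edgeR). Xcr1, among the higher, had 5 and 4 counts in control and 14 to 39 in the treated libraries. It entered the test only through the treated libraries, so that its call supports nothing. Ccl22 went from 4.96 and 5.28 CPM to 30.3 and 28.3, and Clec9a from 15.7 and 22.9 to 4.51 and 5.45. Of 3 tested monocyte and interstitial macrophage genes, 1 was higher and 2 lower. Ccr2, among the lower, had 33 and 48 counts in control and 1 to 5 in the treated libraries. It entered the test only through its control counts, so that its call supports nothing. The higher one, Vcan, went from 3.42 and 3.68 CPM to 267 and 365, nearly all of that list's rise. The dendritic and monocyte sums were higher in each treated library than in control, as H2-Ab1 and Cd74 were. The part of these cell types in those results was not tested. In bulk RNA, fewer cells of a type and less RNA per cell cannot be told apart.

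Per transcript length, Cd74, H2-DMa and H2-DMb1 exceeded the binding chains in control cells. In CPM per kilobase of the longest transcript (RPKM), control means were 42.8 for H2-DMa, 33.7 for Cd74 and 32.7 for H2-DMb1. The chain genes had 5.27 (H2-Ab1), 3.44 (H2-Aa) and 2.97 (H2-Eb1), followed by H2-DMb2 with 2.08 and Ciita with 0.151. The order within the first set depended on the length used: with the union of all exons Cd74 had 28.3, H2-DMb1 27.3 and H2-DMa 24.9. H2-Aa depended on it most, with 9.83 RPKM by its longest protein-coding transcript, a length added after the data were seen. Under all 3 lengths, Cd74, H2-DMa and H2-DMb1 stood above the chain genes in control. Among 15319 genes with a count and a length, H2-DMa stood at percentile 92.3, Cd74 at 89.8, H2-DMb1 at 89.5, H2-Ab1 at 57.7, H2-Aa at 49.9, H2-Eb1 at 47.6, H2-DMb2 at 42.9 and Ciita at 23.6.

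In LPS the order was led by Cd74 with 56.9 RPKM, then H2-DMb1 with 32.4, H2-DMa with 29.1 and H2-Ab1 with 21. H2-Eb1 followed with 6.6, H2-Aa with 4.86, H2-DMb2 with 0.484 and Ciita with 0.39. In LPS + VD3, Cd74 had 46.8 RPKM, H2-DMa 21.1, H2-DMb1 20.5, H2-Ab1 16.1, H2-Aa 4.19 and H2-Eb1 3.24. Ciita with 0.219 and H2-DMb2 with 0.211 came last. Neighbours in these orders whose libraries overlapped were Cd74 and H2-DMb1 in control; H2-DMb1 and H2-DMa, H2-DMa and H2-Ab1, H2-Eb1 and H2-Aa, and H2-DMb2 and Ciita in LPS; and H2-DMa and H2-DMb1, and Ciita and H2-DMb2 in LPS + VD3. H2-Ab1 went from percentile 57.7 in control to 82.7 in LPS and 78.6 in LPS + VD3, while H2-DMa went from 92.3 to 86.9 and 82.6. The LPS value of H2-Ab1 averages 30.9 RPKM in LPS 1 (percentile 87.4) and 11 in LPS 2 (percentile 72), and without LPS 1 it stood below LPS + VD3.

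**Figure D1:**
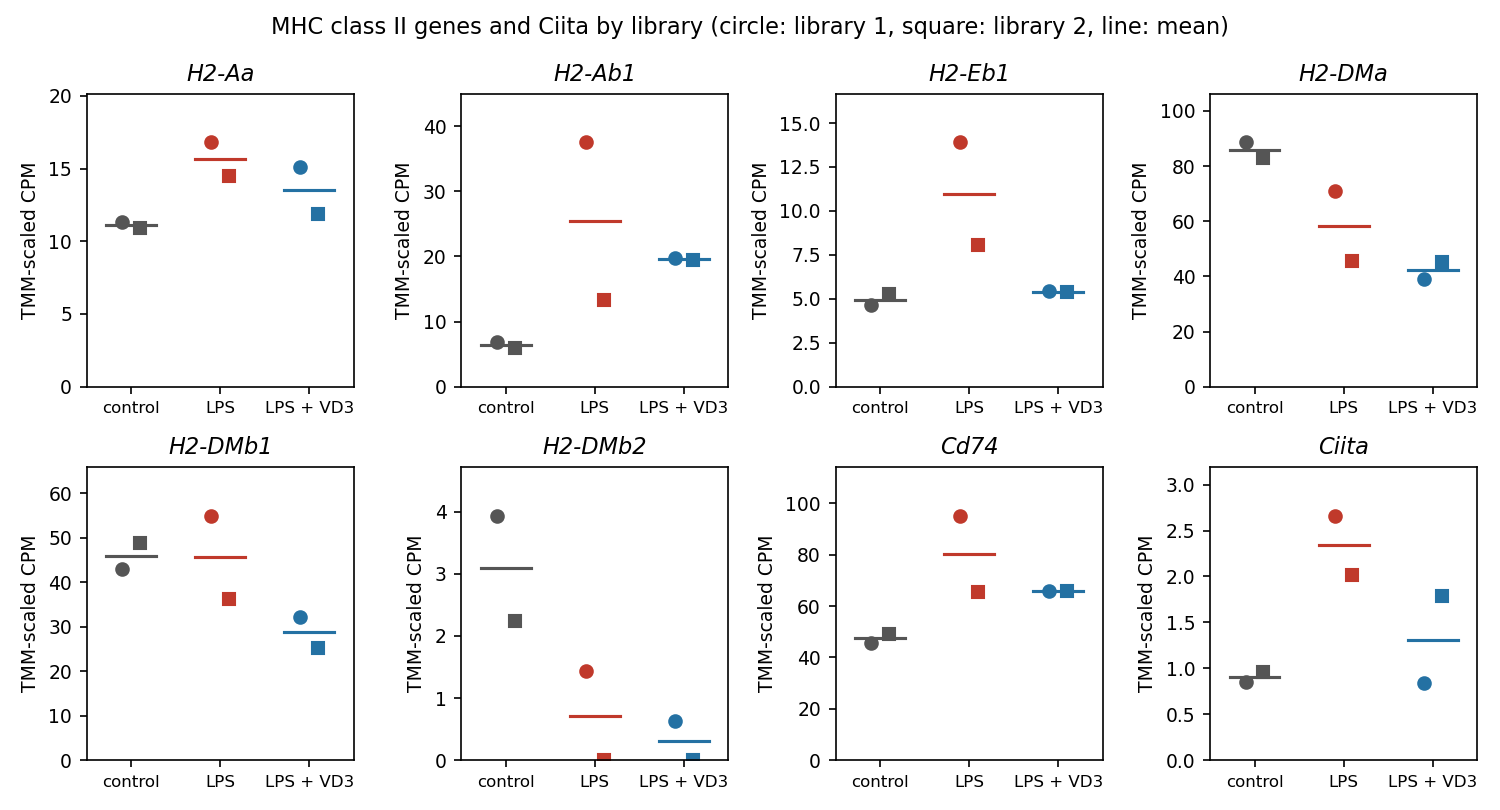
TMM-scaled CPM (y axis, linear, a separate scale per gene) of each of the 8 genes in the 3 groups (x axis), with circles for library 1, squares for library 2 and lines for group means. H2-Ab1 sits at 6.84 and 5.92 in control and at 13.3 to 37.5 in the treated libraries, H2-DMa sits at 88.6 and 82.9 in control and between 39.1 and 70.9 in the others, and LPS 1 exceeds LPS 2 in every panel.

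H2-Ab1, H2-Eb1 and Cd74 rose in LPS against control, and none of the 8 members fell past the threshold. Of the 8, 7 entered the test of edgeR's quasi-likelihood model (adjusted p under 0.05 by Benjamini-Hochberg over 10724 genes), and Ciita did not. The 3 members called higher stand against 15.5% of all genes called higher, and the 0 called lower against 16%. In either direction 31.4% of all genes were called. By library, 5 of the 8 members (H2-Aa, H2-Ab1, H2-Eb1, Cd74 and Ciita) had both LPS libraries above both control libraries. The 2 members H2-DMa and H2-DMb2 had both below. Of all genes, 31.6% lay above and 33.6% below (65.2% in all). H2-DMb2 entered the test only through its control counts, so that its place below control supports nothing.

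H2-Ab1, the beta chain of the I-A molecule, had 6.84 and 5.92 CPM in control, 37.5 and 13.3 with LPS alone, and 19.7 and 19.5 with LPS + VD3. Each treated library lay above both control libraries, and both LPS + VD3 libraries lay between the LPS libraries. The change with LPS was 1.99 ± 0.42 (log2, SE, n = 2 against 2), a 3.97-fold rise (edgeR, adjusted p = 0.00489). Its call held under all 16 alternatives, with a log2 change of 1.04 without LPS 1 and 2.55 without LPS 2, so its size rested on the LPS libraries.

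H2-Eb1, the beta chain of the I-E molecule, had 4.62 and 5.28 CPM in control, 13.9 and 8.08 with LPS alone, and 5.44 and 5.37 with LPS + VD3. The LPS libraries stood above the other 4. Its log2 change with LPS was 1.15 ± 0.32, 2.21-fold (edgeR, adjusted p = 0.0203), and 0.68 with adjusted p = 0.13 without LPS 1. The call was also lost without control 1 (adjusted p = 0.143) or control 2 (0.0935) and in 3 other settings.

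Cd74, whose product fills the groove during assembly, had 45.8 and 49.1 CPM in control, 95.1 and 65.3 with LPS alone, and 65.9 and 66 with LPS + VD3. All 4 treated libraries lay above control, and LPS 2 lay beside the LPS + VD3 libraries. Its log2 change with LPS was 0.75 ± 0.20, 1.69-fold (edgeR, adjusted p = 0.0141). The change was 0.44 without LPS 1 with the call kept, and the call was lost without control 1 (adjusted p = 0.13) or control 2 (0.0875), with library totals (0.46, adjusted p = 0.0903) and with the deposited log2 values (0.44, adjusted p = 0.106).

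H2-Aa, the alpha chain of I-A, had 11.3 and 10.9 CPM in control, 16.8 and 14.5 with LPS alone, and 15.1 and 11.9 with LPS + VD3. Its LPS libraries did not overlap control, yet the log2 difference of 0.50 ± 0.23 did not pass (edgeR, adjusted p = 0.13). Its 95% interval ran from -0.01 to 1.01.

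The peptide exchange genes gave lower or equal values with LPS. H2-DMa had 88.6 and 82.9 CPM in control, 70.9 and 45.7 with LPS alone, and 39.1 and 45.3 with LPS + VD3. Both LPS libraries lay below control, and the log2 difference was -0.56 ± 0.21 (edgeR, adjusted p = 0.0698). It passed under 6 alternatives, among them without LPS 1 (-0.93, adjusted p = 0.000398) and with offsets for GC content (adjusted p = 0.00597). H2-DMb1 had 42.9 and 48.8 CPM in control, 54.9 and 36.2 with LPS alone, and 32.2 and 25.2 with LPS + VD3. The LPS libraries fell on either side of control, with a log2 difference of -0.01 ± 0.22 and a 95% interval from -0.51 to 0.49.

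H2-DMb2, the second copy of the beta chain gene, had 23 and 14 counts in control, 7 and 0 with LPS alone, and 3 and 0 with LPS + VD3. It entered the test only through its control counts. The 7 counts of LPS against 37 of control gave a ratio of 0.233 with a 95% exact counting interval of 0.0876 to 0.529, which covers counting error only. The fitted log2 difference of -2.07 ± 0.88 did not pass (edgeR, adjusted p = 0.101), and at these counts the fitted size depends on the prior count. It passed with the replicate block (-2.19, adjusted p = 0.0322), with GC offsets and block (0.0246) and without LPS 1, where LPS 2 at 0 counts stood alone (0.00706). Summing the counts of H2-DMb1 and H2-DMb2, an alternative added after the data were seen, gave log2 differences of -0.08 for LPS against control, -0.67 for LPS + VD3 against LPS and -0.76 for LPS + VD3 against control.

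Ciita had 5 and 6 counts in control, 13 and 10 with LPS alone, and 4 and 9 with LPS + VD3, and was too low to enter the test. In CPM, control had 0.855 and 0.96, LPS 2.66 and 2.02, and LPS + VD3 0.836 and 1.79. Both LPS libraries lay above the other 4 libraries, and LPS + VD3 straddled control. The ratio of LPS to control was 2.57 (23 against 11 counts, 95% counting interval 1.2 to 5.85). In a fit of every gene with at least 1 count, its log2 differences were 1.35 for LPS against control, -0.82 for LPS + VD3 against LPS and 0.54 for LPS + VD3 against control, and none passed.

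No member changed past the threshold when VD3 was added to LPS. The comparison of LPS + VD3 with LPS gave 0 members higher and 0 lower with edgeR, where 2.21% of all genes were called higher and 1.6% lower, 3.81% in all. The unadjusted p was under 0.05 for 2 members and for 2356 of all genes tested. DESeq2 and limma-voom also called no member. The 7 tested members all had a negative fold change, and LPS 1, the highest library for 6 of the 8 members, stood in the reference group.

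H2-Eb1 had the smallest p, with a log2 difference of -1.02 ± 0.33, a 95% interval from -1.75 to -0.30 and adjusted p = 0.12 (edgeR). Both LPS + VD3 libraries lay below both LPS libraries, at nearly the control level. H2-DMb1 followed with -0.67 ± 0.23 (adjusted p = 0.143), and H2-DMa had -0.46 ± 0.22 (adjusted p = 0.243), again without overlap of the groups. By library, 0 members lay above LPS and 4 lay below it (these 3 and Ciita), where 24.6% and 23.5% of all genes did (48.1% in all).

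For H2-Ab1, H2-Aa and Cd74 the LPS and LPS + VD3 libraries overlapped. Their log2 differences were -0.38 ± 0.38 for H2-Ab1 with a 95% interval from -1.23 to 0.48, -0.22 ± 0.23 for H2-Aa with -0.73 to 0.30, and -0.28 ± 0.19 for Cd74 with -0.71 to 0.15. H2-DMb2, with 3 against 7 counts, had a ratio of 0.429 and a counting interval of 0.0716 to 1.88. The Ciita ratio was 0.566, with a counting interval of 0.263 to 1.17. Intervals that reach from below to above no change leave effects of these sizes undetectable at this depth and replication.

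Which LPS library was kept decided this comparison. Without LPS 2, when LPS 1 alone stood for the group, 5 members were called lower: H2-Ab1 (-0.93), H2-Eb1 (-1.36), H2-DMa (-0.74), H2-DMb1 (-0.93) and Cd74 (-0.52). In that fit 3670 of all genes were called, against 409 as reported. Without LPS 1 no member was called, and the log2 difference was 0.54 for H2-Ab1, 0.00 for Cd74 and, with LPS 2 at 0 counts, a fitted 3.81 for H2-DMb2 that depends on the prior count. The lone library was assumed in these fits to vary like the other groups.

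LPS + VD3 against control, which shares the control libraries with the first comparison and the LPS + VD3 libraries with the second, gave calls in both directions. H2-Ab1 rose, while H2-DMa and H2-DMb1 fell. H2-DMb2 was also called lower, but it had entered the test through its control counts, so that its call supports nothing. In all 1 member was called higher and 3 lower, or 2 without H2-DMb2, where 17.5% of all genes were called higher and 17.1% lower (34.6% in all). By library, 4 members (H2-Aa, H2-Ab1, H2-Eb1 and Cd74) lay above control and the 3 DM genes below, or 2 without H2-DMb2. Of all genes, 38.4% lay above and 37.4% below (75.8% in all). H2-Ab1 was 3.06-fold higher, with a log2 change of 1.61 ± 0.43 (edgeR, adjusted p = 0.0149). The call was lost without control 2 (1.51, adjusted p = 0.0627), LPS + VD3 1 (0.0853) or LPS + VD3 2 (0.101).

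H2-DMa fell by 1.02 on the log2 scale (SE 0.21, edgeR, adjusted p = 0.00439), to 0.493 of its control level. That call was lost only without LPS + VD3 1 (-0.92, adjusted p = 0.0628) among 16 alternatives. H2-DMb1 fell to 0.625 of control, a log2 change of -0.68 ± 0.23 (edgeR, adjusted p = 0.0437). It was lost in DESeq2 (adjusted p = 0.0537) and when either control or either LPS + VD3 library was left out (0.0833 to 0.259). H2-DMb2 had 3 counts against 37 in control, a ratio of 0.0999 with a counting interval of 0.0197 to 0.316 (edgeR, adjusted p = 0.0357), and was lost in DESeq2 (0.0673), without control 1 (0.156) and without LPS + VD3 1 (0.0723) or 2 (0.241).

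H2-Aa, H2-Eb1 and Cd74 did not pass in LPS + VD3 against control. The log2 differences were 0.28 ± 0.23 for H2-Aa (95% interval -0.24 to 0.80), 0.12 ± 0.35 for H2-Eb1 (-0.65 to 0.90) and 0.47 ± 0.20 for Cd74 (0.03 to 0.91; edgeR, adjusted p = 0.0887). The Cd74 difference passed in 5 alternatives, with adjusted p = 0.00848 without LPS 1, 0.00535 without LPS 2 and 0.00125 with GC offsets. The Ciita ratio was 1.46 (13 against 11 counts, interval 0.602 to 3.59).

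**Figure D2:**
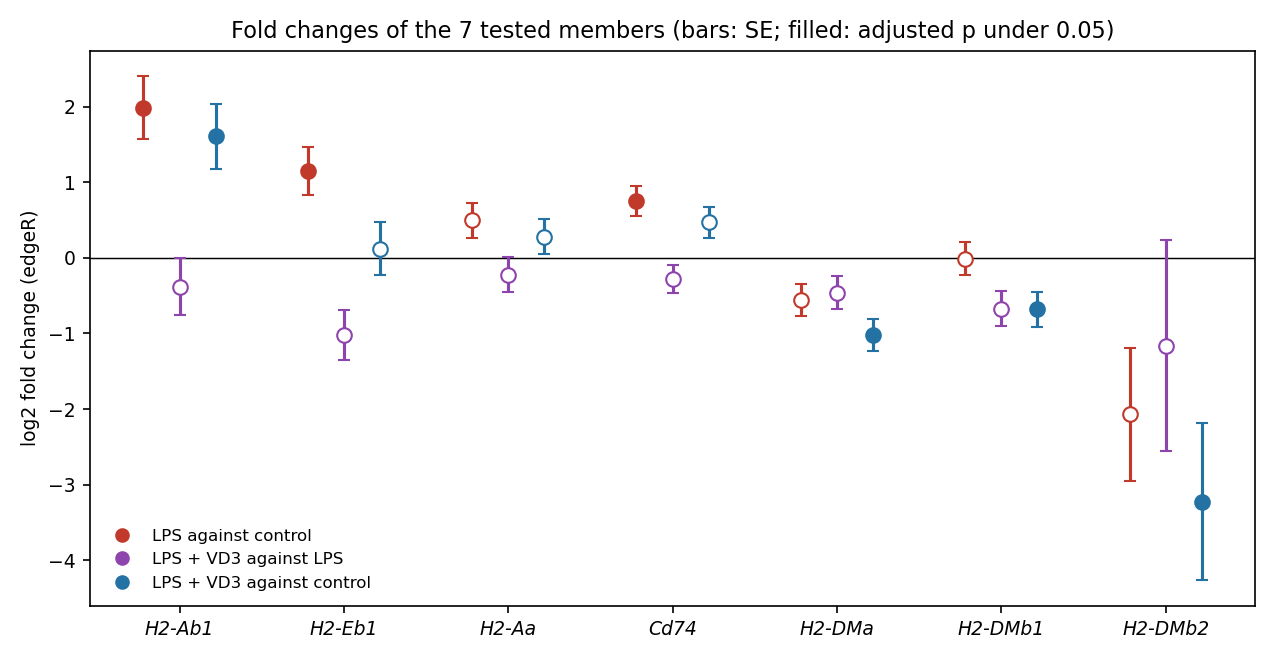
Log2 fold changes (y axis) of the 7 tested genes (x axis) in the 3 comparisons, with bars for the SE and filled points for adjusted p under 0.05 (edgeR). H2-Ab1 lies at 1.99 and 1.61 against control, H2-DMa at -0.56 and -1.02, and all points of LPS + VD3 against LPS are open and below 0.

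Ratios between members within a library need no scaling between libraries. H2-Aa, H2-Ab1 and H2-Eb1 together had 133 and 138 counts in control, 333 and 178 with LPS alone, and 192 and 185 with LPS + VD3. The 3 DM genes together had 792 and 837, then 621 and 405, then 344 and 355. The chain genes thus held 14.4% and 14.2% of the counts of these 6 genes in control. Their share was 34.9% and 30.5% with LPS alone and 35.8% and 34.3% with LPS + VD3. The exact binomial 95% intervals of the control libraries reached up to 16.8% and 16.5%, and those of the 4 treated libraries began at 26.8% or above. LPS and LPS + VD3 overlapped in this share, and both LPS libraries were on the same side of control.

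H2-Ab1 had 0.606 and 0.544 counts per count of H2-Aa in control, 2.23 and 0.917 with LPS alone, and 1.31 and 1.63 with LPS + VD3, so the partner chains of I-A did not move in proportion. H2-Eb1 per H2-Aa was 0.409 and 0.485 in control, 0.829 and 0.556 with LPS alone, and 0.361 and 0.45 with LPS + VD3, higher in both LPS libraries than elsewhere. Cd74 per count of the 3 chain genes was 2.02 and 2.22 in control and between 1.39 and 1.81 in the treated libraries. H2-DMa per H2-DMb1 was 2.06 and 1.7 in control, 1.29 and 1.26 with LPS alone, and 1.21 and 1.8 with LPS + VD3. These ratios are not free of GC content, which is 57.3% in H2-Ab1 and 46.5% in H2-Aa. The LPS 1 to LPS 2 log2 difference was 1.47 for H2-Ab1 and 0.20 for H2-Aa, where genes within 1 point of the same GC content had medians of 0.46 and -0.15.

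**Figure D3:**
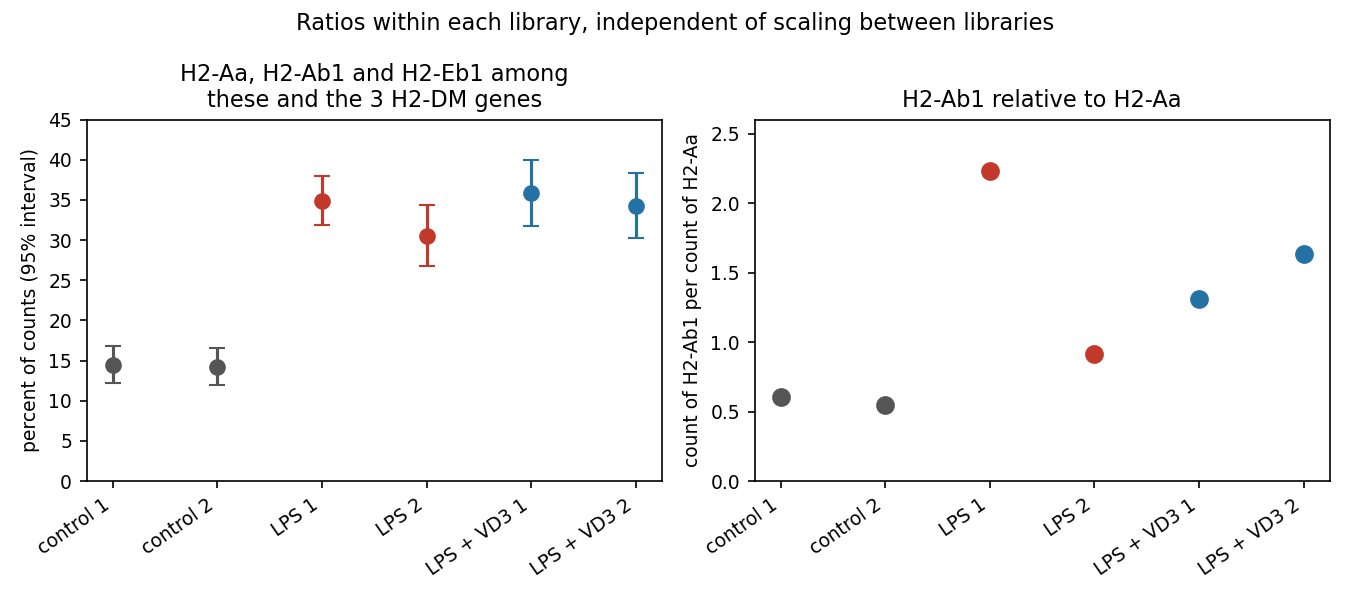
Left, the percent of counts of 6 class II genes that came from H2-Aa, H2-Ab1 and H2-Eb1 in each library, with 95% exact binomial intervals; right, counts of H2-Ab1 per count of H2-Aa. The share is 14.4% and 14.2% in control and 30.5% to 35.8% in the treated libraries, and the ratio is 0.606 and 0.544 in control and 0.917 to 2.23 elsewhere.

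Across the 6 libraries, log2 CPM of Cd74 ran with that of the chain genes, with Pearson's r of 0.96 with H2-Ab1, 0.88 with H2-Aa and 0.86 with H2-Eb1. Among the DM genes r was 0.78 for H2-DMa with H2-DMb1, 0.86 for H2-DMa with H2-DMb2 and 0.74 for H2-DMb1 with H2-DMb2. As H2-DMb2 entered the test only through its control counts, its r values support nothing. Between chain and DM genes r ranged from -0.50 for H2-Ab1 with H2-DMa to 0.48 for H2-Eb1 with H2-DMb1. It was -0.44 for H2-Aa with H2-DMa, 0.14 for H2-Aa with H2-DMb1, and -0.39 and 0.06 for Cd74 with H2-DMa and H2-DMb1. These are descriptions over 6 points in 3 groups that share LPS 1, the highest library of the chain genes.

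The split between chain and exchange genes was compared over the processing choices. In LPS against control, H2-Ab1, H2-Eb1, H2-Aa and Cd74 had positive values and H2-DMa negative values under all 16 alternatives, and H2-DMb1 took both signs. For LPS + VD3 against control, H2-DMa and H2-DMb1 were negative and H2-Ab1 and Cd74 positive under every alternative. H2-Aa reached -0.05 and H2-Eb1 -0.20 when libraries were scaled by their totals alone. That scaling lowered the median of all genes by 0.29 in LPS against control and by 0.32 in LPS + VD3 against control (log2), so relative to the median the signs were unchanged.

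**Figure D4:**
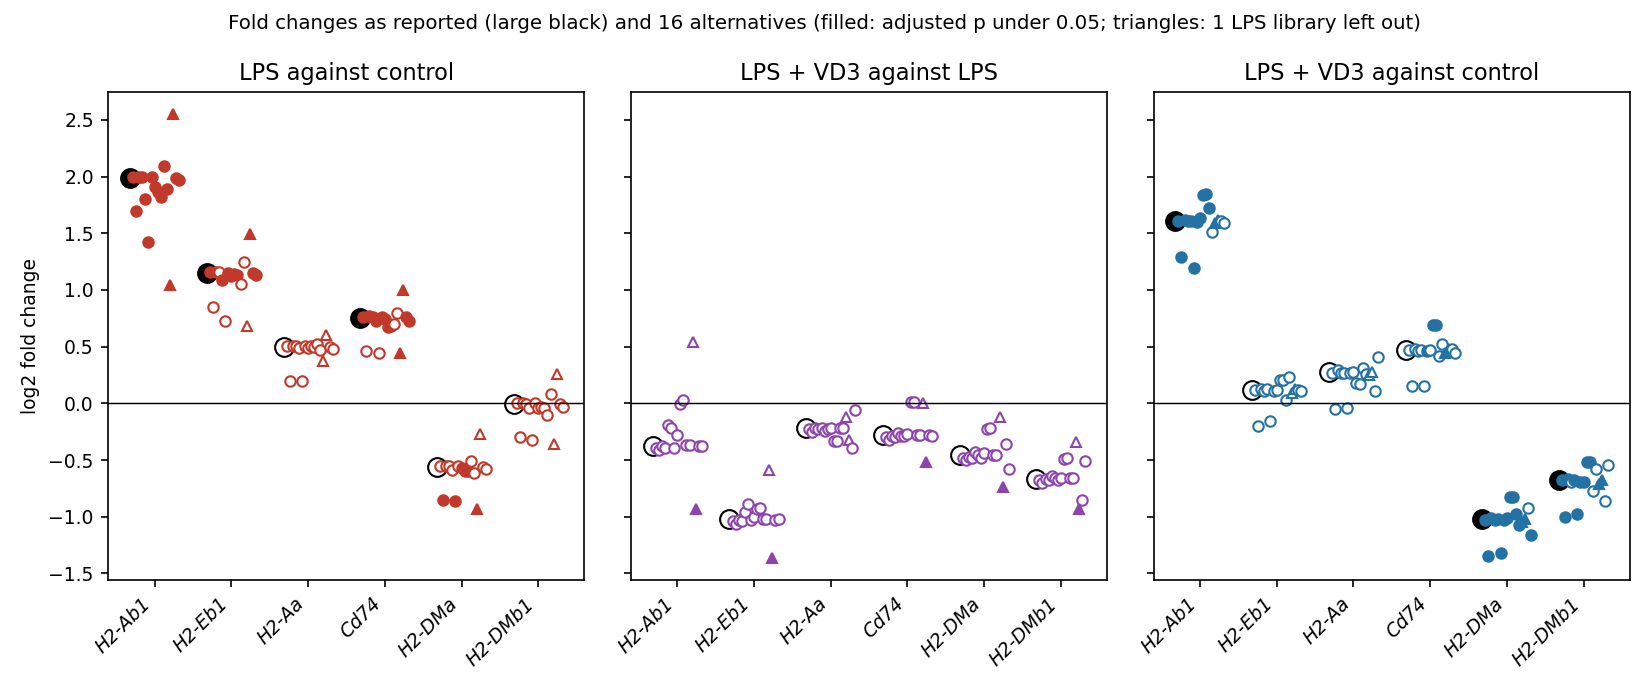
Log2 fold changes (y axis) of 6 genes in the 3 comparisons as reported (large black) and under 16 alternatives (small), filled where the adjusted p is under 0.05 and with triangles for fits without 1 LPS library; H2-DMb2 and Ciita, with few counts, are not drawn. In LPS against control H2-Ab1 stays between 1.04 and 2.55 and is filled throughout, while in LPS + VD3 against LPS filled points occur only in the fit without LPS 2.

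Other genes of class II presentation were described by lists, chosen with earlier results of these data known. Beside the counts of every list stand the shares of all genes called. These were 15.5% higher and 16% lower in LPS against control, and 2.21% and 1.6% in LPS + VD3 against LPS. In LPS + VD3 against control they were 17.5% and 17.1%. No list was tested against these shares. In the class II transcription complex (RFX, NF-Y, CREB and their acetyltransferase partners), 10 genes were tested. Of these, 1 was higher, 0 lower and 9 not past the threshold in LPS against control, with a median log2 difference of 0.19 beside 0.01 for all genes. The 1 was Crebbp, a histone acetyltransferase (0.72 ± 0.19, edgeR, adjusted p = 0.015), and with libraries scaled by totals its call was lost while 2 genes of the list were called lower. Its call was also lost without control 1 (adjusted p = 0.142) or control 2 (0.102). Rfx5, a DNA-binding subunit of RFX, had 12.7 and 9.6 CPM in control, 16.4 and 15.2 with LPS alone, and 18.6 and 20.9 with LPS + VD3. It did not pass in LPS against control (0.50 ± 0.23, adjusted p = 0.128) or in LPS + VD3 against LPS (0.32 ± 0.22, adjusted p = 0.412). It rose in LPS + VD3 against control (0.83 ± 0.23, edgeR, adjusted p = 0.0178), a call lost in 7 of 16 alternatives. No gene of this list passed in LPS + VD3 against LPS.

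Of 14 tested regulators of Ciita, 8 were higher, 2 lower and 4 not past the threshold in LPS against control, with a median of 0.58. Jak2, a kinase of cytokine receptors, rose by 2.92 ± 0.19 (edgeR, adjusted p = 2.38e-06). Irf1, an activator of the interferon-responsive Ciita promoter, rose from 13.7 and 15.2 CPM to 67.2 and 52.7 (2.05 ± 0.20, adjusted p = 3.05e-05). Nlrc5 is counted in this list, although it is the class I counterpart of Ciita rather than its regulator. It rose from 6.67 and 7.52 CPM to 44.7 and 29.7 (2.38 ± 0.25, adjusted p = 6.01e-05). Socs1, an inhibitor of Jak2, is also among the 8, with 1.54 and 0.64 CPM in control and 39.1 and 12.7 in LPS (4.56 ± 0.65, adjusted p = 0.000404). It had 9 and 4 counts in control, 191 and 63 with LPS alone, and 20 and 10 with LPS + VD3. It entered the test only through its LPS counts, so that its calls support nothing. Irf8, a myeloid interferon regulatory factor, fell by 1.48 (SE 0.20, adjusted p = 0.000293).

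In LPS + VD3 against LPS, 1 gene of this list was higher, 2 (Irf1 and Socs1) were lower and 11 did not pass, beside a median of 0.01. Under 7 of 16 alternatives 2 were higher, and without LPS 2 there were 5 lower. Irf4 rose by 1.39 ± 0.15 (edgeR, adjusted p = 0.00101). Irf1 fell by 1.23 (SE 0.19, adjusted p = 0.00675), to 26.8 and 24.4 CPM. Socs1 fell by 3.07 (SE 0.57, adjusted p = 0.0155), to 4.18 and 1.99 CPM, a call that supports nothing, as the gene entered through its LPS counts. The calls of Irf1 and Socs1 were lost without LPS + VD3 1 (log2 differences of -1.29 and -3.69) or LPS + VD3 2 (-1.17 and -2.63). That of Socs1 was also lost with limma-voom (-2.91, adjusted p = 0.0533). Nlrc5 (-0.68 ± 0.23, adjusted p = 0.133) and Jak2 (0.73 ± 0.18, adjusted p = 0.0543) did not pass. Against control, 8 were higher in LPS + VD3 and 2 lower, with a median of 0.86. Irf1 remained higher than control (0.82 ± 0.20, adjusted p = 0.0106), a call lost in 6 of 16 alternatives.

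In the list of invariant chain and peptide processing, 12 genes were tested. In LPS against control 2 were higher and 2 lower, and in LPS + VD3 against LPS none passed (0 higher, 0 lower), with medians of 0.02 and -0.12. With libraries scaled by their totals the first comparison gave 1 higher and 5 lower. Ctss, the protease that makes the last cuts in the invariant chain, was abundant, with 2040 and 2150 CPM in control, 1750 and 1990 with LPS alone, and 1950 and 1910 with LPS + VD3, and did not pass in LPS against control (-0.16 ± 0.14, adjusted p = 0.401; -0.46 and 0.0223 with library totals). Sppl2a, which cleaves the membrane stub left of the invariant chain, rose from 213 and 227 CPM to 395 and 550 (1.10 ± 0.18, edgeR, adjusted p = 0.000929), and its call held under all 16 alternatives. Ctsh fell by 0.54 (SE 0.15, adjusted p = 0.0218), Ctsz rose by 0.52 ± 0.16 (adjusted p = 0.0327) and Asah1 fell by 0.51 (SE 0.17, adjusted p = 0.0474), calls lost without control 1 or control 2 in each case. Ctsz and Asah1 lost theirs under 8 of 16 alternatives each, Ctsz also with library totals (0.23, adjusted p = 0.302) and Asah1 with RLE size factors (adjusted p = 0.0543) and no filter (0.0658). Without LPS 1 the calls of Ctsz (0.28, adjusted p = 0.0824) and Asah1 (-0.33, adjusted p = 0.0702) were also lost. Of the 12, 1 was higher and 3 lower in LPS + VD3 against control, led among the lower genes by Ifi30, the lysosomal thiol reductase (-0.70 ± 0.17, adjusted p = 0.0111), a call lost without control 1 (0.0976), control 2 (0.082) or LPS + VD3 1 (0.101).

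Of 14 tested genes of class II traffic and turnover, 3 were higher and 1 lower in LPS against control, none passed (0 higher, 0 lower) in LPS + VD3 against LPS, and 4 were higher and 1 lower in LPS + VD3 against control. March1, the ubiquitin ligase that marks class II for turnover, rose from 133 and 167 CPM to 227 and 344 (0.93 ± 0.21, edgeR, adjusted p = 0.00757). Cd83, which opposes March1, rose from 3.25 and 1.76 CPM to 15.6 and 12.5 (2.49 ± 0.38, adjusted p = 0.000718). Cd82, a tetraspanin of class II compartments, rose by 0.97 ± 0.17 (adjusted p = 0.00182). Plekhm2, which links lysosomes to kinesin, fell by 0.80 (SE 0.19, adjusted p = 0.00885), a call lost without control 1 (0.0551) or control 2 (0.0775). March1 and Cd83 were also higher in LPS + VD3 than in control (March1 1.18 ± 0.21, adjusted p = 0.00182; Cd83 1.73 ± 0.41, adjusted p = 0.00819). Neither passed in LPS + VD3 against LPS (March1 0.25 ± 0.21, adjusted p = 0.494; Cd83 -0.76 ± 0.33, adjusted p = 0.22). The March1 call with LPS was lost without control 1 (adjusted p = 0.102), and the Cd83 call in LPS + VD3 against control without control 2 (0.0795) or LPS + VD3 1 (0.0889).

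Among 5 tested neighbours of the class II genes on chromosome 17, 4 were higher and 0 lower in LPS against control, with a median of 1.29. Tap1, which with Tap2 forms the peptide transporter of class I loading, had 18.6 and 19.4 CPM in control, 141 and 84.2 with LPS alone, and 56.2 and 46.9 with LPS + VD3. Tap2 rose by 1.40 ± 0.22 (edgeR, adjusted p = 0.000775), and Psmb9, an immunoproteasome subunit, by 1.29 ± 0.32 (adjusted p = 0.0123), which became 0.79 with adjusted p = 0.0505 without LPS 1 and was lost without control 2 (0.0955). Brd2, which overlaps H2-DMa, rose by 0.55 ± 0.15 (adjusted p = 0.0181), opposite in sign to H2-DMa, a call lost with library totals (0.26, adjusted p = 0.205), without control 1 (0.187) and without control 2 (0.192). In LPS + VD3 against LPS, 0 were higher and 3 lower: Tap1 (-1.13 ± 0.24, adjusted p = 0.0287), Tap2 (-1.05 ± 0.22, adjusted p = 0.0287) and Psmb9 (-1.52 ± 0.34, adjusted p = 0.0376). All 3 calls were lost without LPS + VD3 1 (log2 differences of -1.86 to -1.16) or LPS + VD3 2 (-1.25 to -0.94). That of Psmb9 was also lost without LPS 1 (-1.06), without control 1 (-1.52) and with limma-voom (-1.49, adjusted p = 0.0524). Whether these neighbours differed from the class II genes was not tested.

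**Figure D5:**
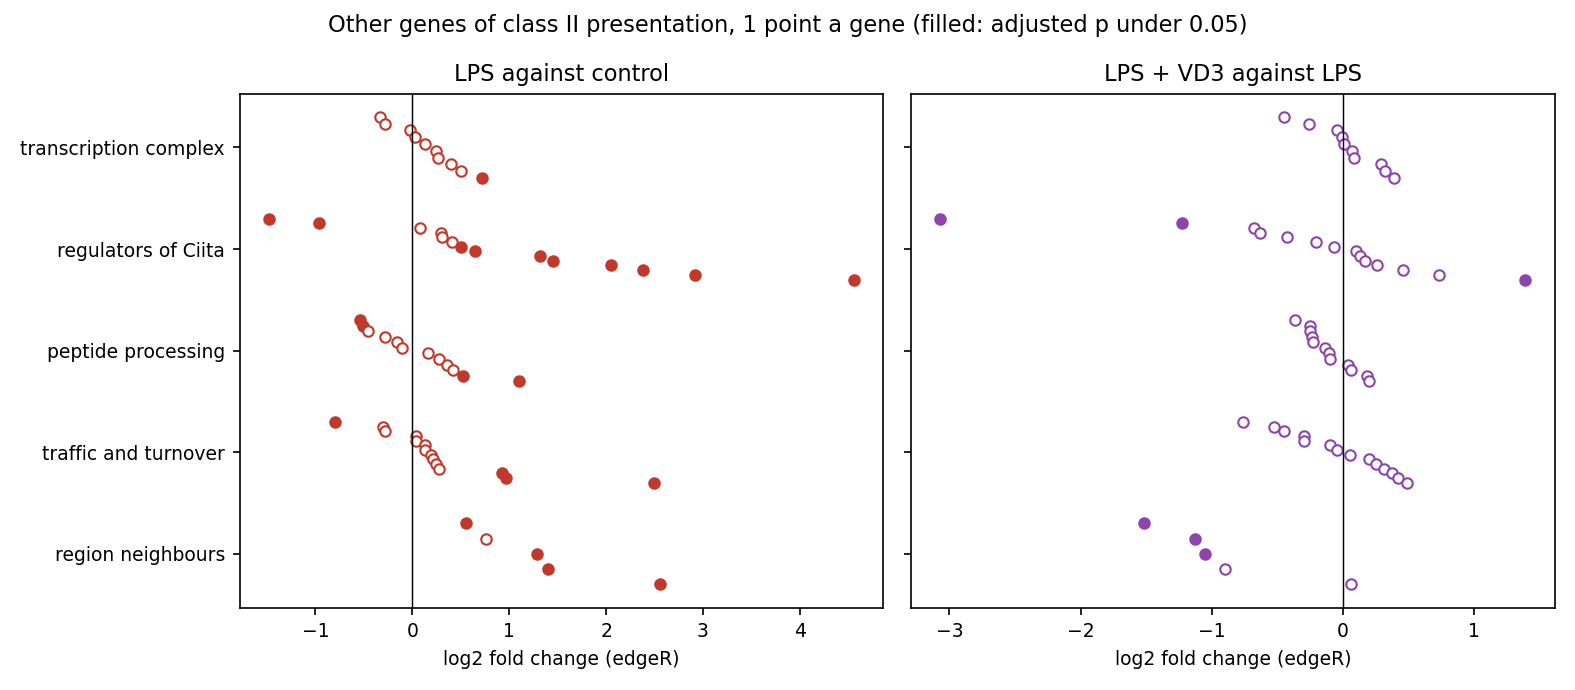
Log2 fold changes (x axis) of the tested genes of 5 lists (y axis), 1 point a gene, in LPS against control (left) and LPS + VD3 against LPS (right), filled where the adjusted p is under 0.05 (edgeR). With LPS, 8 of 14 genes of the Ciita regulator list (Nlrc5 and Socs1 among them) and 4 of 5 region neighbours are filled on the right of 0. With VD3 added, 3 genes of that list (Socs1 among them) and 3 neighbours are filled.

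The remaining class II genes were near or at 0 and entered no test. H2-Oa, the alpha chain of the H2-DM inhibitor H2-O, had 0 to 5 counts per library, and H2-Ob, its beta chain, likewise 0 to 5. H2-Ea-ps was at 0 in all 6 libraries, and H2-Eb2 had 1 count in LPS 1.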

How the data were processed

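RNA-seq libraries of mouse alveolar macrophages came from the KAPA mRNA HyperPrep kit, per the labels' protocols. The deposited table holds whole-number counts per gene that the authors made from their reads. TopHat2, edgeR and mm10 are named in the submitters' processing notes without versions, with the counting program, annotation and strand setting not given in the sources used here. A second deposited table holds log2 values of 10343 genes, which equalled log2(CPM + 1) of the counts within 0.00423 for 10327 matched genes and served only in an alternative. Of 23413 genes, 7903 had no count.

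The test used edgeR 4.0.16 (R 4.3.3): filterByExpr (minimum count 10, minimum total 15), TMM scaling and a quasi-likelihood fit of 3 group means to all 6 libraries, with Benjamini-Hochberg adjustment at 0.05 over 10724 genes. CPM values are TMM-scaled, RPKM used GENCODE M21 lengths, SE is the size of the log2 change over the root of F, and 95% intervals come from the same fit. The fit was run on simulated counts with the same spread for all genes and no deviating library. That setting does not cover the difference between LPS 1 and LPS 2. Alternatives were other scalings, no filter, DESeq2 1.42.0, limma 3.58.1 (voom, and the log2 values), the compared libraries alone, a replicate block, GC offsets (loess span 0.5) and leaving out each library. Members, lists and tests were chosen with earlier results of these data known. All members are named, and of each list at most 4 called genes a comparison, those with the smallest p (fewer in LPS + VD3 against control), plus Rfx5, Ctss, Cd83, March1, Irf1, Socs1 and Nlrc5; 1 further gene of that set is not reported here. The 5 genes most like the members were taken by Pearson's r of log2 CPM (prior count 2). Jak2 in LPS + VD3 against LPS was named outside that rule, after its value was seen. Counting intervals cover counting error only.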

Additional observations from a re-analysis of the deposited data

How the results depend on the processing

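Of the members' fold changes under the alternatives, 298 kept direction and side of the threshold, 23 lost and 19 gained a call, and 14 changed sign. Members higher in LPS against control numbered 3, and 1 with library totals or with the log2 values (1 to 3 over libraries left out). Members lower numbered 0, but 1 with library totals, the log2 values or GC offsets, 2 with the replicate block and 2 with GC offsets and block (0 to 2 over libraries left out). Over libraries left out, the lowest number of members higher came from leaving out control 1 or control 2. The highest number of members lower came from leaving out LPS 1. With VD3 added to LPS, 0 members were lower (0 to 5, the 5 without LPS 2). In LPS + VD3 against control 1 was higher (2 with the compared libraries alone, GC offsets, or offsets and block; 0 to 2) and 3 lower (1 in DESeq2; 0 to 3). Over libraries left out, all genes called ranged from 1885 (without control 2) to 4809 in LPS against control (3371 as reported; 1942 without control 1), from 53 (without LPS + VD3 2) to 3670 (without LPS 2) in LPS + VD3 against LPS (409; 239 and 241 without control 1 or 2, 93 without LPS + VD3 1), and from 2049 (without control 1) to 5403 in LPS + VD3 against control (3713; 2084 without control 2, 2115 without LPS + VD3 2). The 409 became 259 with the compared libraries alone, 1114 with the block, 767 with GC offsets and 1239 with offsets and block. With library totals, 26.5% of calls were higher in LPS against control (49.2% as reported) and 26% in LPS + VD3 against control (50.7%). Changes of sign were: H2-DMb1, LPS against control, 0.00 without a filter, 0.08 without control 2 and -0.36 to 0.26 over libraries left out; H2-Ab1, LPS + VD3 against LPS, 0.03 with offsets and block and -0.93 to 0.54 over libraries left out; H2-DMb2, -4.99 to 3.81; Cd74, 0.01 with GC offsets, 0.01 with offsets and block and -0.52 to 0.00 over libraries left out; Ctss, -0.07, -0.07 and -0.05 to 0.14, and March1, -0.02, -0.02 and -0.03 to 0.59, under the same settings; in LPS + VD3 against control, H2-Aa, -0.05 with library totals and -0.04 with the log2 values, H2-Eb1, -0.20 and -0.16, and Ciita, -0.14 to 0.96 over libraries left out. The causes were not tested. Replicate numbers were not taken to pair the libraries, but pairing is possible. By label, LPS + VD3 1 is LPS 1 plus VD3, and LPS + VD3 2 is LPS 2 plus VD3. Deviations of equal numbers correlated with r of 0.17, 0.09 and 0.20. These low values cannot exclude pairing, as LPS 1 and LPS 2 also differed with GC content. With the block, H2-DMb1 (adjusted p = 0.0573) and H2-Eb1 (0.0602) came closer to the threshold in LPS + VD3 against LPS (edgeR), and neither passed. Of 828 values of other named genes, 723 kept their call, 89 lost it, 10 gained one and 6 changed sign.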

Other observations

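The genes whose log2 CPM ran most like the mean of H2-Aa, H2-Ab1, H2-Eb1 and Cd74 over the 6 libraries were Asb6 (Pearson's r = 0.996), Ctsz (0.995), Psmb6 (0.995), Myl12a (0.994) and Smg9 (0.992) among 9059 genes, of which 169 had r above 0.95. Those most like Ciita were Setd1b (0.989), Sap30l (0.989), Dtnb (0.988), Myadm (0.984) and Arrb2 (0.982), with 20 above 0.95. These values describe 6 points in 3 groups and carry no test. Without LPS 1, none (0) of the 5 genes named for the class II profile was among its top 5, which became Mapk14, Smg1, Map1b, Mcoln2 and Slfn2, and 1162 genes had r above 0.95. For Ciita 2 of the 5 were shared, Myadm and Arrb2. The class II profile spanned 1.38 on the log2 scale with LPS 1 and 0.65 without it.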
